A study of Bos taurus with 2 samples.

Results

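The troponin isoforms studied here are the 7 genes of the feature list named TNNT1, TNNT2, TNNT3, TNNI1, TNNI2, TNNC1 and TNNC2, out of 21867 genes listed and 16816 genes with at least 1 count. They were chosen by name and not by a measured value. TNNI3, the heart isoform of troponin I, was not found by name in the feature list and was not analysed here.

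Troponin is the calcium switch of striated muscle and sits on the thin filament beside actin and tropomyosin. Troponin C binds calcium, troponin I holds back the contact between actin and myosin at rest, and troponin T ties the complex to tropomyosin. Each subunit comes in isoforms that differ between fibre types: TNNT1, TNNI1 and TNNC1 encode the slow skeletal forms, TNNT3, TNNI2 and TNNC2 the fast skeletal forms, and TNNT2 the cardiac form of troponin T. TNNC1 is also the troponin C of the heart. In the embryo and in newly formed muscle cells, slow, fast and cardiac isoforms can be made side by side before the adult fibre types are set.

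Satellite cells, the resident stem cells of skeletal muscle, came from 1 Holstein bull calf aged 2 weeks and were grown for 1 week in medium with fetal bovine serum. The study profiled them one cell at a time to find which subpopulations such cultures hold. Both libraries, called library 1 and library 2 here, were made from the same cultured cells without any treatment, so they vary only through preparation and sequencing. Nothing here measures how animals differ. The method captures the 3' end of each RNA molecule and marks it with its cell's barcode and its own random tag, the unique molecular identifier (UMI). A molecule counts once whatever its length, so no correction for length was made between genes. How far the capture of molecules and their assignment to a gene differ between genes was not tested. Ratios and shares between genes are therefore those of counted UMIs.

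Library 1 held 9939 cells with a median of 14626 UMIs, and library 2 held 9157 cells with a median of 15206 UMIs. The authors sorted the cells into 15 clusters, and the cluster of all 19096 cells was recovered from their deposited averages, with 0 of 252240 pairs of gene and cluster differing. The clusters held 317 to 2493 cells. Median depth was 647, 1389, 1631 and 2513.5 UMIs per cell in clusters 15, 7, 13 and 14, against 12929 or more in every other cluster but cluster 10 (5398.5). The barcodes of 27 cells occurred in both libraries. The 5 markers of differentiating muscle (MYOG, MYMK, MYH3, ACTA1 and CKM) summed to 56.6 UMIs per 10000 in each library in cluster 12 and to 8.57 and 8.76 in cluster 3. They summed to 10.6 and 9.67 in cluster 15, 9.86 and 8.05 in cluster 7 and 6.02 and 3.63 in cluster 14. The sum thus did not set cluster 3 apart from the shallow clusters 15 and 7. In cluster 9, which the study names fibro-adipogenic for PDGFRA, PPARG and ZNF423, the 5 markers summed to 0.597 and 0.385. Cluster 8 is the PAX3-enriched start and cluster 1 the MYF5-enriched step of the path that the study draws through clusters 3 and 12.

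All 7 troponin genes had their highest level in cluster 12. This cluster of 627 cells gave 37.4% of the 185044 troponin UMIs, and cluster 3 gave 29.6%. The summed level, in UMIs per 10000 UMIs, was 56.5 in library 1 and 55.2 in library 2 in cluster 12. It was 15.6 and 15.4 in cluster 3, and 5.01 and 5.14 in cluster 1. The shallow cluster 15 lay between clusters 12 and 3, at 19.7 and 17 from 399 UMIs. Clusters 14 (10.2 and 9.87) and 7 (7.84 and 6.74), also shallow, lay between clusters 3 and 1. The lowest mean of the summed level was that of cluster 11, at 0.561 and 0.559, and cluster 9 had 0.825 and 0.509. Nearly all of these molecules encoded the calcium sensor: TNNC2 gave 140983 UMIs and TNNC1 33954, against 3782 of TNNI2, 3621 of TNNT2, 1646 of TNNT1, 531 of TNNI1 and 527 of TNNT3.

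**Figure D1:**
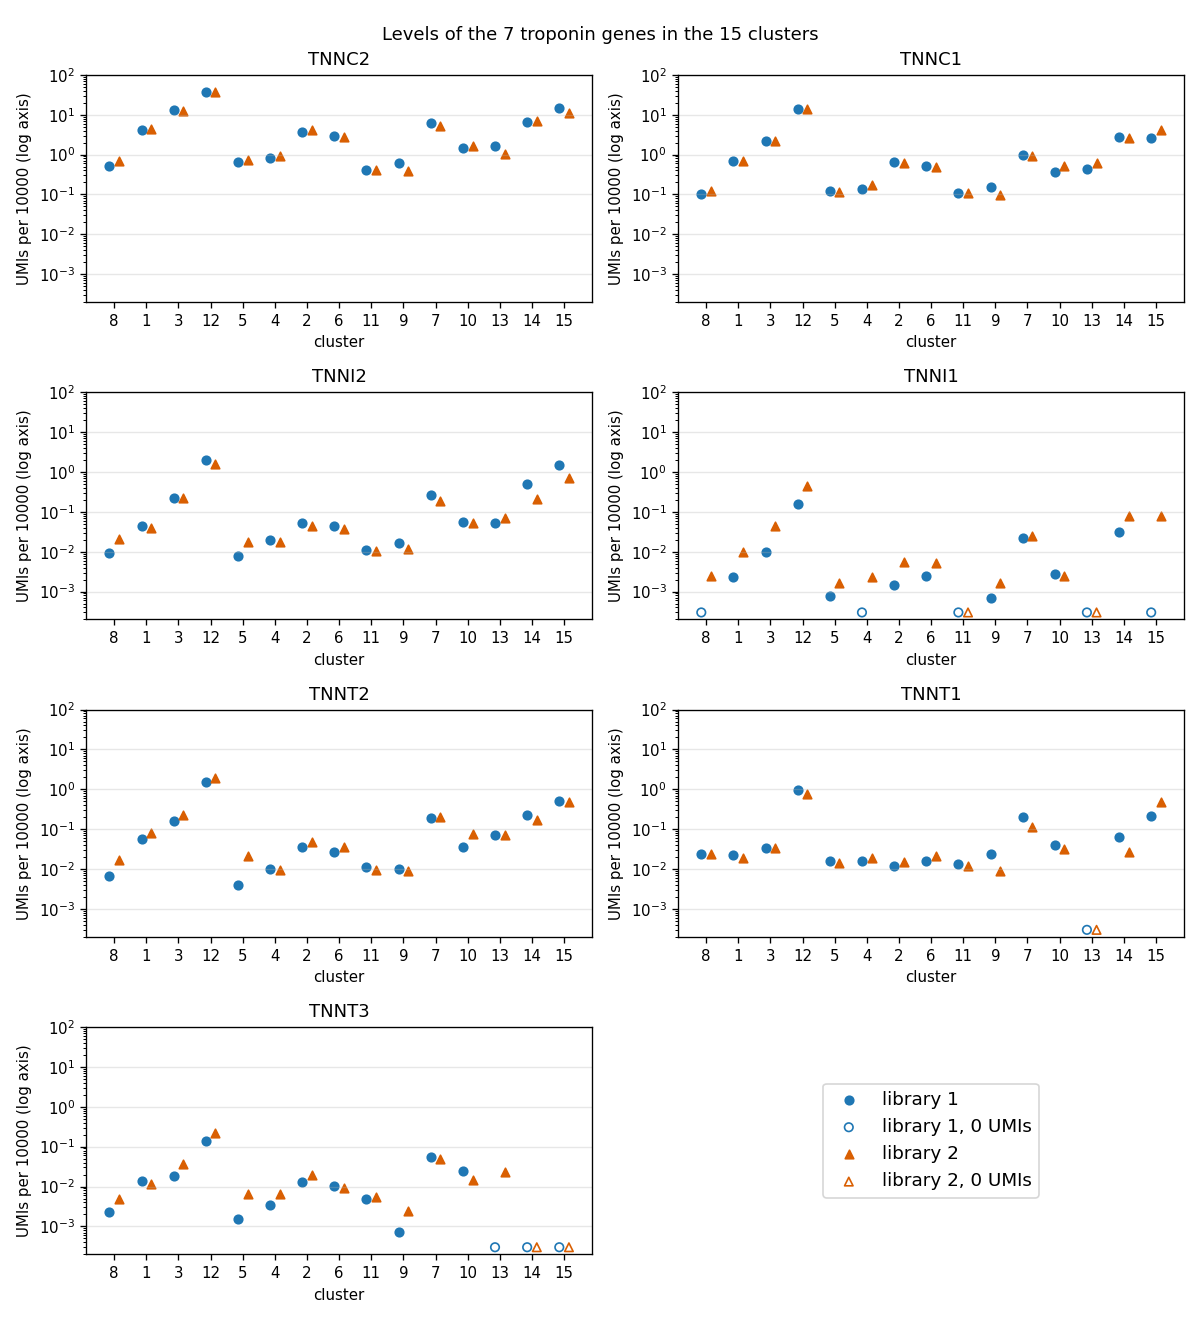
Level of each troponin gene in UMIs per 10000 UMIs (log axis) in the 15 clusters, ordered from cluster 8 through clusters 1, 3 and 12 to the rest, with 1 point per library. Open symbols at the foot of a panel stand for a library with 0 UMIs of the gene in that cluster. All 7 panels peak at cluster 12.

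TNNC2 (ENSBTAG00000046725), fast troponin C, reached 37.6 UMIs per 10000 in library 1 and 36.6 in library 2 in cluster 12. It had 12.9 and 12.6 in cluster 3, and 14.9 and 11.1 in cluster 15. The libraries of clusters 15 and 3 overlapped, and both clusters lay apart from cluster 14 with 6.66 and 6.82. Below these came clusters 7, 1, 2 and 6, each set apart from the next, and the lowest mean was that of cluster 11, 0.412 ± 0.000897 (SD, n = 2 libraries).

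TNNC1 (ENSBTAG00000045757), the slow and cardiac troponin C, had 14.1 and 13.6 UMIs per 10000 in cluster 12. Next came cluster 15 with 2.62 and 4.11 and cluster 14 with 2.71 and 2.55, which overlapped. Cluster 3 followed with 2.25 and 2.16. The 5 lowest clusters, 4, 9, 5, 8 and 11, lay between 0.157 and 0.109 on average, and each overlapped its neighbour.

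TNNI2 (ENSBTAG00000010880), fast troponin I, was at 1.98 and 1.58 in cluster 12, 1.47 and 0.726 in cluster 15 and 0.218 and 0.222 in cluster 3. Clusters 14, 7 and 3 came next in that order, each overlapping its neighbour. TNNI1 (ENSBTAG00000047231), slow troponin I, had 0.153 and 0.433 in cluster 12, where library 2 was far above library 1, and 0.01 and 0.0444 in cluster 3. No UMI of TNNI1 was found in cluster 11, which allows a level of up to 0.00193 and puts it at least 10.3-fold below all other cells. Those cells include cluster 12, with 68.7% of the UMIs of TNNI1. Clusters 4, 5, 8 and 9 had pooled levels from 0.00114 to 0.0012, below that bound, so cluster 11 could not be told from them.

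TNNT2 (ENSBTAG00000045789), the cardiac form of troponin T, had 1.53 and 1.98 in cluster 12 and 0.161 and 0.234 in cluster 3. Cluster 15 lay between them with 0.525 and 0.484. TNNT1 (ENSBTAG00000006419), slow troponin T, had 0.979 and 0.746 in cluster 12 but 0.0343 and 0.0329 in cluster 3, which ranked 6 among the 15 clusters. The same gene had 0.21 and 0.484 in cluster 15 and 0.201 and 0.115 in cluster 7. TNNT3 (ENSBTAG00000022158), fast troponin T, was the rarest member, with 0.135 and 0.222 in cluster 12, 0.0558 and 0.0492 in cluster 7 and 0.0185 and 0.0365 in cluster 3. It had 0 UMIs in clusters 14 and 15, whose depth allows levels of up to 0.0218 and 0.137, so no difference from all other cells (0.0187 and 0.0186) could be seen there.

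Each cluster was then compared with all other cells, as 2 summed libraries against 2, with edgeR's quasi-likelihood test over every gene left by a low-count filter, with 0.05 as the limit of the adjusted p for a call. All 7 members passed the filter in every comparison. The clusters were drawn by the authors from the same counts, so these tests describe the spread between libraries and are no independent evidence for a gene that helped to draw them. Of the 105 pairs of troponin gene and cluster, 15 were called higher and 58 lower, where over all genes 14.9% of pairs were called higher and 17.1% lower. For every cluster but 12, all other cells include cluster 12, with 32.7% (TNNC2) to 68.7% (TNNI1) of a member's UMIs. A lower call therefore does not place a cluster below the cells outside cluster 12. In cluster 1, TNNC2 (4.18 and 4.30) and TNNC1 (0.691 and 0.678) were called lower. They lay above those cells (3.52 and 3.48, 0.633 and 0.604), while TNNI2 (0.0442 and 0.0391) lay below them (0.0602 and 0.0559). Cluster 12 was higher for 7 of 7 genes, with 24.8% of all genes called higher there, and cluster 3 for 4 of 7 (24.5%). Cluster 14 was higher for TNNC2, TNNC1 and TNNI2 (3.73%) and lower for 0 (4.07%), and cluster 15 was higher for TNNC2 (0.039%). All 7 members were called lower in cluster 4 (15.3%) and in cluster 9 (27.7%). In cluster 5 (12%), cluster 8 (23.5%) and cluster 11 (13.7%) 6 members were lower, with TNNI1 not called in any of them. In clusters 1 (18.8%), 2 (16.8%), 6 (9.48%) and 10 (21.9%) 5 were lower, with TNNI1 and TNNT3 not called. In cluster 13, 3 were lower (11.3%) and 0 higher (5.98%), and in cluster 7, 2 were lower (26.4%) and 0 higher (18.3%). With the library as a replicate block, 20 pairs were called higher and 66 lower. The share of all genes called by that fit is not given here, so these counts cannot be set against 14.9% and 17.1%. TNNI1 was then lower in clusters 1, 2, 5, 6, 8, 10 and 11 (adjusted p from 8.63e-12 to 0.000133 by edgeR with the block) and higher in cluster 3 (log2 0.71, adjusted p = 0.000441). TNNT3 was then higher in cluster 3 (0.77, adjusted p = 0.000105 by the same edgeR fit) and lower in cluster 6 (-0.95, adjusted p = 0.00042), and TNNT1 was higher in cluster 7 (0.77, adjusted p = 0.0362). The clustering made without the listed genes turned 4 of the lower calls. In its cluster matched to 1, TNNC2 (log2 0.91) and TNNC1 (0.25) were called higher and TNNT2 (0.02) was not called. In that matched to 2, TNNC2 (0.16) was not called. The match was partial: shared cells made up 0.377 of the cells in either version of cluster 1 and 0.543 for cluster 2.

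In cluster 12 the log2 fold change against all other cells was 5.75 ± 0.67 (SE) for TNNI1, 5.52 ± 0.15 for TNNT1, 5.22 ± 0.19 for TNNT2 and 5.12 ± 0.13 for TNNI2. It was 4.67 ± 0.066 for TNNC1, 4.16 ± 0.29 for TNNT3 and 3.59 ± 0.054 for TNNC2. The most abundant member thus had the smallest fold change, with 3.52 and 3.48 UMIs per 10000 outside cluster 12. The adjusted p ran from 5.76e-07 for TNNC1 and TNNC2 to 0.000612 for TNNI1 by edgeR's quasi-likelihood test, adjusted after Benjamini and Hochberg. With equal weight for each of the other 14 clusters, the plain log2 ratio was 3.97 for TNNT1, 4.13 for TNNT2, 4.57 for TNNI1, 3.54 for TNNI2, 3.94 for TNNC1 and 3.24 for TNNC2. In cluster 3 TNNT1 was called lower than all other cells, which include cluster 12, with a log2 fold change of -0.73 ± 0.14 and an adjusted p of 0.0064 by the same edgeR test.

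The step from cluster 1 to cluster 3 is the first on the study's path at which MYOG, the master regulator of muscle differentiation, is enriched. In all, 6 of 7 troponin genes were higher in cluster 3, where 21.1% of all genes were called higher. TNNI2 rose most among them, from 0.0442 and 0.0391 UMIs per 10000 to 0.218 and 0.222, a log2 fold change of 2.43 ± 0.10 (SE). TNNC1 rose from 0.691 and 0.678 to 2.25 and 2.16 (1.72 ± 0.053), and TNNC2 from 4.18 and 4.30 to 12.9 and 12.6 (1.63 ± 0.045). The libraries of the 2 clusters did not overlap for any of these genes.

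TNNT2 rose from 0.0559 and 0.0812 to 0.161 and 0.234, a log2 fold change of 1.56 ± 0.22. TNNT3 went from 0.0134 and 0.0114 to 0.0185 and 0.0365 (1.16 ± 0.37, adjusted p = 0.041 by edgeR's quasi-likelihood test). TNNT1 went from 0.0221 and 0.0193 to 0.0343 and 0.0329 (0.73 ± 0.21, adjusted p = 0.0266 by the same edgeR test). Its level in cluster 1 lay below cluster 8 (0.0238 and 0.0233) and between the libraries of cluster 9 (0.0239 and 0.00903). That in cluster 3 lay above both. All 3 troponin T genes lay higher in both libraries of cluster 3. TNNI1 had 0.00233 and 0.00963 in cluster 1 and 0.01 and 0.0444 in cluster 3, so that library 1 of cluster 3 barely passed library 2 of cluster 1. Within library 1 and library 2, the plain log2 ratio of cluster 3 to cluster 1 was 2.11 and 2.21. The log2 fold change of TNNI1, 2.19 ± 0.80, was not called (adjusted p = 0.0667 by edgeR without a block). With the library as a replicate block it was called (2.20, adjusted p = 2.07e-10 by edgeR). DESeq2 did not call TNNT1 (0.73, adjusted p = 0.224) or TNNT3 (1.17, adjusted p = 0.118) and called TNNI1 (2.22, adjusted p = 0.0412). A clustering of the cells made without the troponin and other listed genes gave smaller differences between its clusters matched to 3 and 1. Shared cells made up 0.619 of the cells in either version of cluster 3 and 0.377 for cluster 1, so the cells compared differed as well. There TNNC2 was 0.38 and TNNC1 0.56 on the log2 scale, both still called, while TNNT2 (0.32, adjusted p = 0.208 by edgeR) and TNNT3 (0.65, adjusted p = 0.194) were not.

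From cluster 3 to cluster 12 all 7 genes were higher, where 18.2% of all genes were called higher, and the slow form of troponin T changed most. TNNT1 had 0.0343 and 0.0329 UMIs per 10000 in cluster 3 and 0.979 and 0.746 in cluster 12, a 27.4-fold difference (log2 4.77 ± 0.17, adjusted p = 1.01e-06 by edgeR's quasi-likelihood test). Slow troponin I followed, with a log2 fold change of 3.57 ± 0.60 for TNNI1 (adjusted p = 0.00278 by edgeR). TNNT2 was higher by 3.26 ± 0.17 and TNNI2 by 3.12 ± 0.12 on the log2 scale. For TNNT3 the difference was 2.81 ± 0.33, for TNNC1 2.75 ± 0.057 and for TNNC2 1.64 ± 0.051, from the levels given above. The libraries of cluster 12 lay above those of cluster 3 for each of the 7 genes. No setting tried ended a call here: over 7 alternatives the log2 fold change ran from 3.54 to 4.94 for TNNT1 and from 1.61 to 1.68 for TNNC2. The clustering made without the troponin and other listed genes gave the 3.54 of TNNT1, and called all 7 genes as well.

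**Figure D2:**
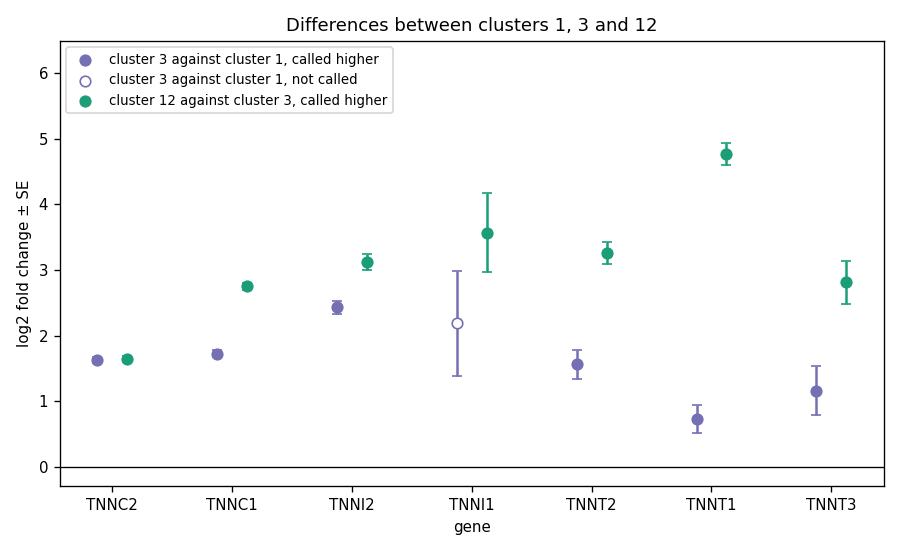
Log2 fold change of each troponin gene with its SE, in cluster 3 against cluster 1 and in cluster 12 against cluster 3. The SE was derived from the fold change and F statistic of edgeR's test (2 summed libraries per cluster). Filled points are called higher and the open point is not called. TNNT1 has the lowest value in the first comparison (0.73) and the highest in the second (4.77).

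The makeup of each subunit, that is the share of its UMIs that each isoform took, was compared next. Troponin C was mostly of the fast form throughout. The share of TNNC1 stood between 13.9% and 15.5% in clusters 1 to 8, with 14.7% of 52962 UMIs in cluster 3 (exact 95% binomial interval 14.4% to 15%, which like all intervals here covers counting error only). In cluster 12 it was 27.2% of 63220 UMIs (26.8% to 27.5%). The libraries gave 14.8% and 14.6% in cluster 3 and 27.3% and 27.1% in cluster 12, so the clusters were far apart beside the spread of the libraries. With 2 libraries against 2, an exact permutation test cannot pass 0.05, and none was made. Clusters 9, 10 and 11 had shares of 20.1%, 22.2% and 20.8%, and cluster 14 had 28.0% (25.5% to 30.5%) of 1290 UMIs. A share of 27% in cluster 13 rested on 189 UMIs, with 20.8% and 37.7% in the libraries.

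Troponin I was mostly of the fast form as well. TNNI1 took 14.2% of 2572 troponin I UMIs in cluster 12 (12.9% to 15.6%) and 10.6% of 869 in cluster 3 (8.62% to 12.8%). The libraries differed by more than the clusters did: the share was 7.16% and 21.5% in cluster 12 and 4.4% and 16.7% in cluster 3. Within each library the share was higher in cluster 12 than in cluster 3, a difference that was not tested.

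Troponin T had the most varied makeup. In cluster 12 TNNT2, the cardiac form, took 62.8% of 3472 UMIs (61.2% to 64.4%), TNNT1 30.8% (29.3% to 32.4%) and TNNT3 6.39% (5.6% to 7.26%). In cluster 3 TNNT2 took 76.3% of 903 UMIs (73.4% to 79%), TNNT1 13.2% (11% to 15.6%) and TNNT3 10.5% (8.6% to 12.7%). The share of TNNT1 was 16% and 10.8% in the libraries of cluster 3 and 37% and 25.3% in those of cluster 12, without overlap. In the clustering made without the listed genes, TNNT1 took 22.5% in the cluster matched to 3. TNNT1 had the largest share in the clusters poorest in troponin: 54.5%, 47.4%, 60.6%, 60.8% and 45.5% in clusters 4, 5, 8, 9 and 11. These shares rest on 44 to 112 UMIs each, and in cluster 5 the libraries gave 74.1% and 33.3%. TNNT3, fast troponin T, had the smallest share in every cluster given one except cluster 2, where it reached 22.9% against 18.7% for TNNT1. Clusters 13 and 15, with 8 and 19 UMIs of troponin T, were given no share.

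**Figure D3:**
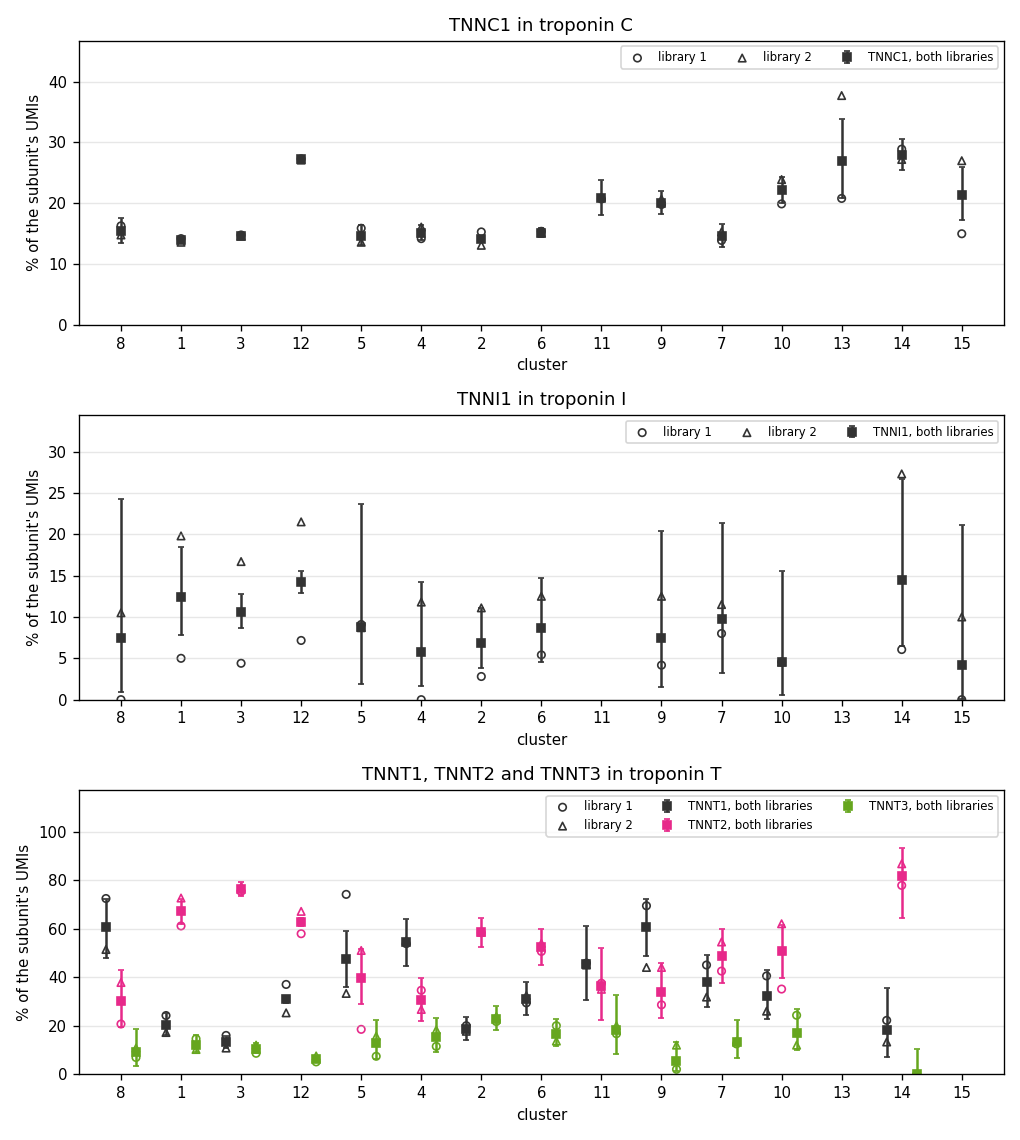
Share of TNNC1 in the UMIs of troponin C, of TNNI1 in troponin I and of each gene in troponin T, by cluster, for clusters with at least 20 UMIs of the subunit. Squares pool both libraries with exact 95% binomial intervals, and open symbols are single libraries. TNNC1 sits near 15% in clusters 1 to 8 and at 27.2% in cluster 12.

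The 3 subunits stand in equal number in the troponin complex, which is made of protein. Their UMIs, which count captured RNA and do not measure protein, were not equal in number. In cluster 12 there were 19.5 and 17 UMIs of troponin C for each UMI of troponin T in libraries 1 and 2, and 24.2 and 25 for each of troponin I. In cluster 3 these ratios were 70.8 and 48.8 to troponin T and 66.4 and 55.6 to troponin I. Troponin T and troponin I were closer to each other, with 1.24 and 1.46 UMIs of T for each of I in cluster 12 and 0.938 and 1.14 in cluster 3.

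The genes were then followed in single cells. To compare clusters of unequal depth, each cell was thinned to 5000 UMIs and shallower cells were left out, which kept 613 of 627 cells of cluster 12 and 2031 of 2034 of cluster 3. Cluster 9 served as the background, since its cells should lack troponin: after thinning, 11.8% of its 1080 cells had a UMI of TNNC2, 4.17% of TNNC1, 0.648% of TNNT1, 0.463% of TNNT2 and 0.37% of TNNI2. None had one of TNNT3 or TNNI1 after thinning, while 0.37% and 0.278% of the same cells had one without it. In cluster 9, 14.7% of the cells were marked as likely doublets, against 3.35% in cluster 12. Without thinning, single cells of cluster 9 held up to 63 UMIs of TNNC2 and 30 of TNNC1. How much doublets add to this background is not reported here.

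In cluster 12, 98.7% of thinned cells had a UMI of TNNC2, 93% of TNNC1, 49.9% of TNNT2 and 34.4% of TNNI2. The share was 17% for TNNT1, 11.7% for TNNI1 and 6.69% for TNNT3, all above the background. In cluster 3 the shares were 84.3% for TNNC2, 43.8% for TNNC1, 8.67% for TNNI2 and 7.73% for TNNT2, and between 1.13% and 1.67% for TNNT1, TNNT3 and TNNI1. At least 1 troponin UMI was found in 99.7%, 89.3%, 62% and 26.1% of cells in clusters 12, 3, 1 and 8, and in 15.9% of the background cells of cluster 9. Without thinning, 33.7% of the cells of cluster 12 had a UMI of TNNT1 and 35.2% one of TNNI1, so these shares follow depth. For TNNT1 the unthinned share was 4.18% in cluster 3 and 3.98% in cluster 9, at median depths of 16482 and 23011 UMIs.

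Slow, fast and cardiac isoforms met in the same cells. Without thinning, and so at a depth that differs between cells, 608 of 627 cells in cluster 12 (97%, 95.3% to 98.2%) held UMIs of both TNNC2 and TNNC1. For troponin I, 162 cells (25.8%, 22.5% to 29.5%) held both TNNI2 and TNNI1, 246 held TNNI2 alone, 59 held TNNI1 alone and 160 held neither. Of the cells with slow troponin I, 73.3% also held the fast form, against 65.1% of all cells of cluster 12. For troponin T, 188 cells held both TNNT2 and TNNT1, 89.1% of those with TNNT1, and 54 held both TNNT3 and TNNT1. TNNT2 was held by 82.8% of all cells of cluster 12. In cluster 3, 64.8% of 2034 cells held both TNNC2 and TNNC1, and 1.33% both TNNI2 and TNNI1. These counts moved with depth. Thinned to 5000 UMIs, 92.2% of 613 cells in cluster 12 held both troponin C genes, 5.87% (36 cells) both troponin I genes, 10.9% (67 cells) both TNNT2 and TNNT1, and 1.63% (10 cells) both TNNT3 and TNNT1. Of thinned cells with TNNI1, 50% also held TNNI2, against 34.4% of all thinned cells of cluster 12. Of those with TNNT1, 64.4% also held TNNT2, against 49.9%. The troponin I pair was found in 16.8% and 34.9% of unthinned cells in libraries 1 and 2. In the clustering made without the listed genes, the cluster matched to 12 gave 16.4% for the troponin I pair, 18.7% for TNNT2 and TNNT1 and 5.15% for TNNT3 and TNNT1. Leaving out the cells marked as likely doublets gave 96.9% for the troponin C pair and 25.6% for the troponin I pair in cluster 12.

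The members differed in how evenly their UMIs were spread over the 627 cells of cluster 12. TNNC2 had a median of 67 UMIs per cell, with the middle cells from 42 to 99, and the 63 cells richest in it held 22.5% of its UMIs. TNNC1 had a median of 21 UMIs, and TNNT2 of 2. TNNT1 lay at the other end, with a median of 0, up to 92 UMIs in a cell and 78.5% of its UMIs in its 63 richest cells. TNNI2 had a median of 1, up to 85 UMIs in a cell and 56.2% of its UMIs in its 63 richest cells. TNNI1 never passed 6 UMIs in a cell and TNNT3 never passed 9.

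**Figure D4:**
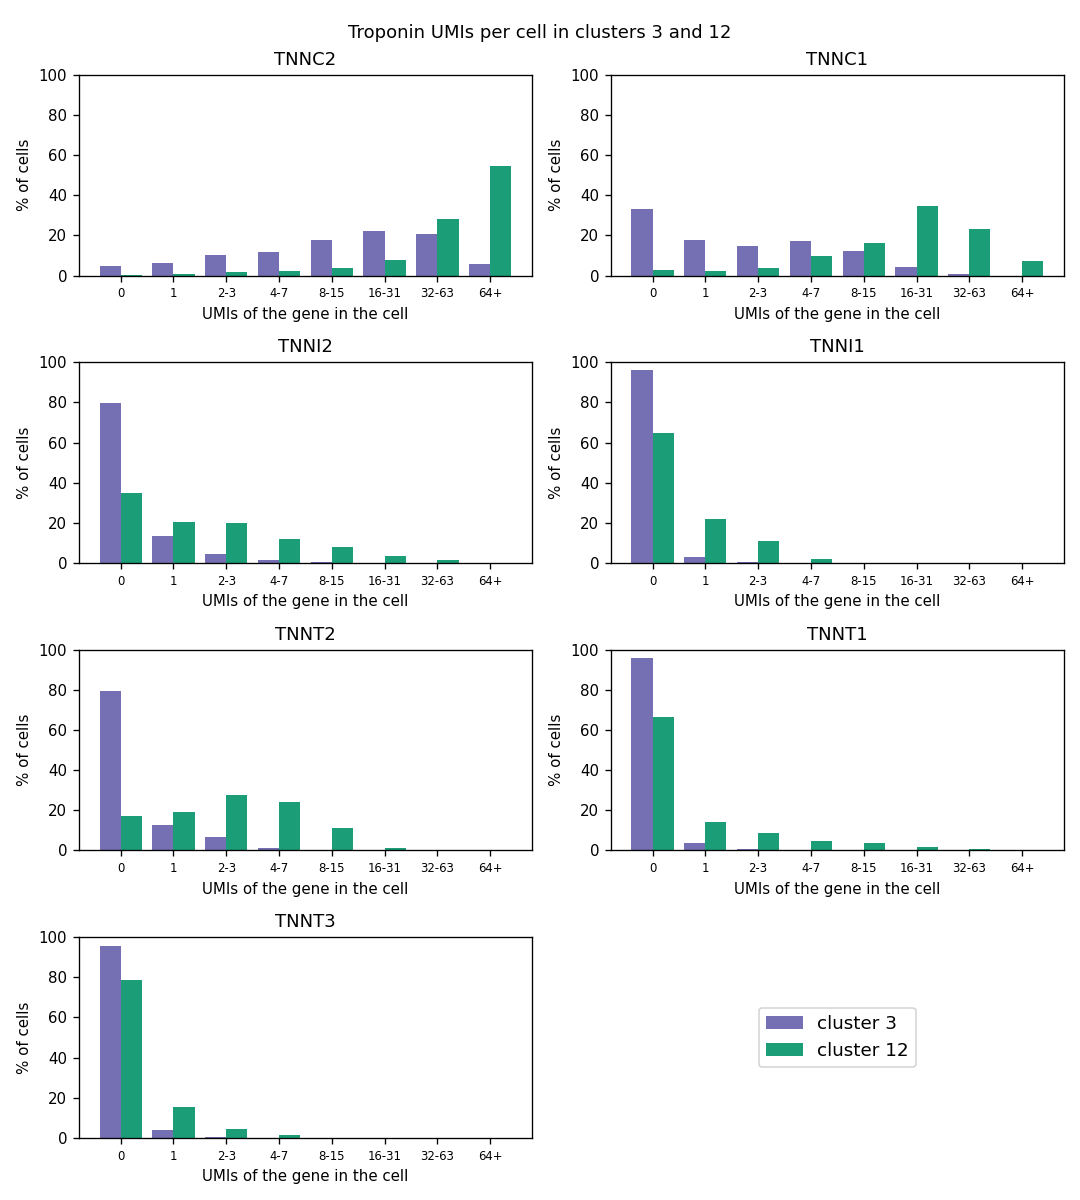
Share of cells (%) of cluster 3 (2034 cells) and cluster 12 (627 cells) by the number of UMIs of each troponin gene in the cell, without thinning. TNNC2 and TNNC1 shift as a whole in cluster 12, while TNNT1 keeps 66.3% of the cells at 0 with a tail up to 92 UMIs.

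The uneven spread of TNNT1 led to a division of the cells of cluster 12 by their TNNT1 UMIs, made after its values were seen and given as a description. The 59 cells with 5 or more held 77% of the TNNT1 UMIs of the cluster, 152 cells had 1 to 4 and 416 had none. Depth was similar, with medians of 21472, 20560 and 18485 UMIs per cell, and 2, 8 and 11 cells were marked as likely doublets. In each library, every other troponin gene was higher in the 59 cells than in the 416. TNNC1 had 26.7 and 29.1 UMIs per 10000 in libraries 1 and 2 in the 59 cells and 11 and 11.4 in the 416. TNNI2 had 4.86 and 3.65 against 1.3 and 1.2. TNNC2 had 51.7 and 57.2 against 33.7 and 33.2, and TNNT2 2.59 and 3.26 against 1.28 and 1.78. For TNNI1 the libraries overlapped across these cells, with 0.328 and 0.961 against 0.115 and 0.334, and TNNT3 had 0.274 and 0.532 against 0.0961 and 0.186.

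MYOG ran the other way, with 15.9 and 17.6 in the 59 cells and 19.2 and 19.9 in the 416. ACTA1, the adult skeletal actin, had 47 and 54.8 against 12.3 and 12.4. MYL2, the slow and cardiac regulatory light chain, had 5.2 and 1.44 against 0.256 and 0.155, and 82.6% of the 46 UMIs of MYL3, the slow and cardiac essential light chain, fell in the 59 cells. The 59 cells were 9.41% of cluster 12. They also held 34.7% (35) of the UMIs of MYH2, the fast myosin. Of CKM, the muscle creatine kinase, they held 27.2%, and of MYH3, the embryonic myosin, 20.9%. Genes of slow, fast and embryonic muscle thus all had more of their UMIs there than the share of cells. This was not particular to the 59 cells for MYH2, CKM, MYH3 and ACTA1. The 152 cells with 1 to 4 TNNT1 UMIs, 24.2% of the cluster, held 45.5% (46) of the UMIs of MYH2. They held 31.7% of those of CKM, 30.3% of MYH3 and 29.6% of ACTA1, but 20.7% of MYL2 and 6.52% of MYL3. Over the 613 thinned cells of cluster 12, the correlation of TNNT1 was 0.32 with TNNC1, 0.29 with TNNI2, 0.07 with TNNT3 and -0.12 with MYOG. The strongest pair was TNNC1 and TNNC2 (0.49), and the remaining pairs of members lay between 0.10 and 0.28. All of these points share their library and the thinned depth.

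MYOG sets off the muscle programme, so cells of clusters 8, 1, 3 and 12 were grouped by their MYOG UMIs after thinning. The summed troponin level was 4.70 ± 0.186 (SD, n = 2 libraries) in 3942 cells without MYOG, 12.3 ± 1.91 in 845 cells with 1 to 2 UMIs, 24.1 ± 0.866 in 575 cells with 3 to 5 and 33.4 ± 2.03 in 976 cells with 6 or more. Cells of cluster 12 made up 0.178%, 4.14%, 20.5% and 46.4% of these groups. Within cluster 3 the level was 11.7 ± 0.692, 16 ± 0.987, 17.3 ± 0.989 and 16 ± 0.579, so that cells without MYOG were lowest. Without thinning, cluster 3 had 14.2 and 14 with 1 to 2 MYOG UMIs, 13.9 and 13.2 with 3 to 5, and 18.1 and 17.9 with 6 or more, and the last group lay above the others without overlap. Within cluster 12 it was 51.7 ± 6.3, 59.2 ± 5.32 and 54.3 ± 2.63 for 1 to 2, 3 to 5 and 6 or more, with overlapping libraries.

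Inside cluster 3, TNNI2 had 0.145 and 0.126 in cells without MYOG and 0.31 and 0.314 in cells with 6 or more. TNNT2 went from 0.0872 and 0.108 to 0.198 and 0.331, also without overlap. Without thinning, where a MYOG group also reflects the depth of its cells, the summed level over the 4 clusters was 8.13, 11.5 and 30.8 in the groups with MYOG.

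Because both libraries were made from the same cells, a gene should have the same level in each. TNNC2 and TNNC1 did, with ratios of library 2 to library 1 over all cells of 1.00 (0.994 to 1.02) and 0.993 (0.972 to 1.01). MYOG had 1.02. TNNI1 did not: 131 UMIs in library 1 and 400 in library 2 gave a ratio of 3.23 (2.64 to 3.96), and it was higher in library 2 in 12 clusters and lower in 1. Of 12046 genes with at least 100 UMIs, 0.473% had a ratio at least as far from 1. TNNT3 had a ratio of 1.56 (1.30 to 1.86) and TNNT2 of 1.39 (1.30 to 1.49). TNNT1, at 0.861, and TNNI2, at 0.884, were lower in library 2. A ratio at least as far from 1 was found in 3.36% of genes for TNNT3 and 5.21% for TNNT2. For TNNT1 and TNNI2 it was found in 13.9% and 16.9%. The 5th and 95th percentiles of the log2 ratio over these genes were -0.16 and 0.46, so TNNI1 (1.69), TNNT3 (0.64), TNNT2 (0.48), TNNT1 (-0.22) and TNNI2 (-0.18) lay outside that range, and their cause was not tested.

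**Figure D5:**
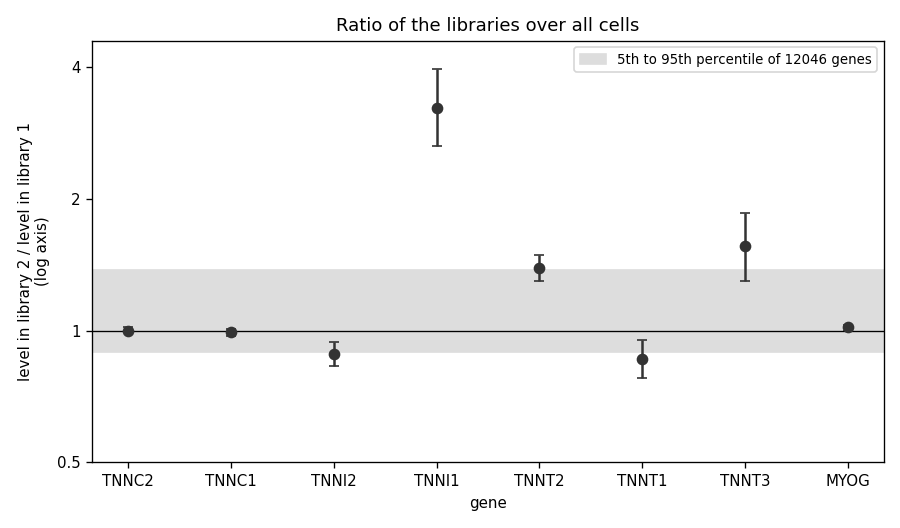
Ratio of the level in library 2 to that in library 1 over all cells for the troponin genes and MYOG (log axis), with exact 95% intervals of counting error. The grey band spans the 5th to 95th percentile of 12046 genes. TNNI1 stands at 3.23, above the band, and TNNC1 and TNNC2 stand at 1.

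TNNT2 is named for the heart, so heart genes were read in the same cells. In cluster 12 the heart hormones NPPA and NPPB and the heart factor TBX20 had 0 UMIs, NKX2-5 had 3 and the heart myosin MYH6 had 12, against 2181 of TNNT2. Over all cells NPPA had 0 UMIs. The 5 heart markers, without TNNI3, summed to 0.0065 and 0.0176 UMIs per 10000 in cluster 12 and to 0.0181 and 0.0199 over all cells. Markers of glia had 0 UMIs in all cells, and those of endothelium had 2 in cluster 12. Smooth muscle and pericyte markers summed to 8.12 and 7.34 in cluster 12, nearly all of it ACTA2, against 7.45 and 7.35 over all cells.

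The patterns of the members over the 15 clusters were compared as log2(UMIs per 10000 + 0.01), both libraries summed. TNNT2 and TNNI2 were most alike (r = 0.98 over 15 clusters), as were TNNC1 and TNNC2 (0.98) and TNNT2 and TNNC1 (0.98). With MYOG, r was 0.95 for TNNC1, 0.94 for TNNT2 and TNNC2, 0.90 for TNNI2, 0.81 for TNNI1, 0.67 for TNNT1 and 0.64 for TNNT3. These points share libraries and differ in depth, and the peak at cluster 12 weighs in each r. The values of TNNT1 include 0 UMIs in cluster 13, whose depth allows a level of up to 0.0302. Those of TNNT3 include 0 UMIs in clusters 14 and 15, and those of TNNI1 in clusters 11 and 13.

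Among 12046 genes, the pattern closest to TNNT1 was that of ARHGDIG (r = 0.967), followed by HK3, a hexokinase (0.95), and HOOK2 (0.934). Here TNNT1 was set to 0 in cluster 13, whose depth allows up to 0.0302, and its value in cluster 15 rests on 8 UMIs. TNNI1 was set to 0 in clusters 11 and 13, whose depth allows up to 0.00193 and 0.0302. TNNI1 was closest to CSRP3, a muscle LIM protein (0.980), MYL4, an embryonic and atrial light chain (0.961), and MYL6B (0.958). TNNC2 was closest to ACTC1, cardiac actin (0.980), TNNC1 (0.975) and MYLPF, the fast regulatory light chain (0.961). TNNC1 was closest to MYLPF (0.980), TNNT2 (0.975) and TNNC2 (0.975). TNNT2 and TNNI2 were closest to each other (0.982) and then to GMPR, a purine enzyme (0.981 and 0.976), with TNNC1 (0.975) next for TNNT2 and MYLPF (0.970) for TNNI2. Among the genes closest to TNNT3 were USP28 (0.958) and MEI1 (0.951), with TNNT3 set to 0 in clusters 14 and 15, where the depth allows higher levels.

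Troponin I and troponin T genes lie in pairs in the genome. In the RefSeq annotation of ARS-UCD2.0, TNNI1 and TNNT2 are separated only by LAD1, and TNNI2 and TNNT3 by PRR33 and LSP1, while TNNT1 is next to TNNI3. The pairs did not share a level. TNNT2 had 1.76 ± 0.314 UMIs per 10000 in cluster 12 and TNNI1 0.293 ± 0.198, and TNNI2 had 1.78 ± 0.285 and TNNT3 0.179 ± 0.0616.

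Other genes of the contractile machinery were read from fixed lists for the step from cluster 3 to cluster 12. Over all genes 18.2% were called higher and 15.6% lower in this comparison. Of 22 thin filament genes tested, 16 were higher and 3 lower, with a median log2 fold change of 1.17 against -0.02 for all genes. LMOD3, which lengthens thin filaments, differed by 4.97 ± 0.15, and ACTA1 by 5.80 ± 0.12. LMOD2, a relative, had 121 UMIs in cluster 12 and 3 in cluster 3, a ratio of 115 (38.4 to 565, counting error). The 3 lower genes were TPM3 (-0.72), TPM4 (-0.93) and TMOD3 (-1.5), of which TPM4 and TMOD3 are known from cells other than muscle. The troponin genes were thus among a larger set of thin filament genes that were higher in cluster 12.

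Of 12 genes of fast fibres, 6 were higher and 0 lower (median 1.35, or 2.21 over 17 genes with no filter on low counts), and of 14 genes of slow fibres 8 were higher and 2 lower (median 1.05). Of 9 embryonic and cardiac muscle genes 8 were higher and 0 lower (median 2.00, or 2.96 over 8 genes without likely doublets and 1.39 over 13 genes with no filter). Among fast genes MYLPF was higher by 2.46 ± 0.068 and the calcium pump ATP2A1 by 4.21 ± 0.17, and MYH2, a fast myosin, had 101 UMIs in cluster 12 and 3 in cluster 3, a ratio of 95.9 (31.9 to 473). Among slow genes the calcium store protein CASQ2 was higher by 6.45 ± 0.27 and MYL2 by 5.58 ± 0.55, and MYL3 had 46 UMIs in cluster 12 and 0 in cluster 3, at least 43.7-fold higher. The 2 lower slow genes were TPM3 (-0.72) and the calcium pump ATP2A2 (-0.41). MYH8, the perinatal myosin, was higher by 5.52 ± 0.38, CSRP3 by 4.61 ± 0.19 and MYL4 by 3.88 ± 0.12. Fast, slow and early forms were all among the genes called higher in cluster 12, as they were among the troponins.

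Calcium handling genes had 9 of 17 higher and 3 lower (5 lower with the replicate block, median 0.94), with CACNG1, a subunit of the calcium channel that senses the membrane potential, at 4.86 ± 0.18.

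Clusters 15, 14 and 7 are shallow, and their troponin levels rest on few UMIs. Cluster 15, with 219359 UMIs in all, held 356 UMIs of troponin C, 24 of troponin I and 19 of troponin T. TNNC2 was called higher than in all other cells (log2 1.15 ± 0.12, adjusted p = 0.0478 by edgeR's quasi-likelihood test). TNNI2 (2.76 ± 0.39, adjusted p = 0.0893 by edgeR), TNNC1 (1.31 ± 0.20, adjusted p = 0.104) and TNNT1 (2.43 ± 0.54, adjusted p = 0.205) were not called. With the block TNNI2 (adjusted p = 9.73e-06 by edgeR) and TNNC1 (adjusted p = 3.65e-09) were called higher as well. The number of members called higher there was 0 to 5 depending on the test, and was 0 without likely doublets. The share of all genes called in cluster 15 by these other fits is not given here. UMIs of TNNT1 in cluster 15 came from 4 cells and those of TNNI2 from 12.

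In cluster 14 TNNC1 was higher by 1.23 ± 0.073, TNNI2 by 1.47 ± 0.33 and TNNC2 by 0.54 ± 0.057 on the log2 scale. In cluster 7 the plain level of TNNC2 was above that of all other cells, 6.12 and 5.23 against 4.96 and 4.98. After the TMM scaling of edgeR, TNNC2 was called lower (-0.46 ± 0.092) and TNNC1 too (-0.96 ± 0.093). With cells under 2000 UMIs left out TNNC2 was not called (log2 0.05, adjusted p = 0.894 by edgeR). The direction for TNNC2 in cluster 7 therefore depends on the scaling and on the cells kept.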

How the data were processed

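The 2 libraries were processed by the authors with Cell Ranger 3.0.2 (ARS-UCD1.2), which counted UMIs and combined the libraries after matching mapped reads in each cell on average. Deposited counts are UMIs per gene and cell. The authors also deposited cluster averages, read here as a score, which fixed the cluster of every cell, and fold changes and p-values, not used here. Library membership was read from the barcode suffix. UMIs were summed per library and cluster and tested with edgeR 4.0.16 (quasi-likelihood, TMM, filterByExpr, Benjamini-Hochberg) in R 4.3.3. The fit was also run on simulated counts drawn without a shared library effect, which cannot show how it treats paired libraries. Sums of the same library pair by design, with correlations of library ratios from 0.233 to 0.512 over genes. The main fit had no block. Each SE given is the absolute log2 fold change divided by the square root of the F statistic. Alternatives were DESeq2 1.42.0, its size factors, no filter, the library as block, doublets left out, a minimum of 2000 UMIs per cell, and Louvain clustering without 100 listed genes (igraph 0.11.9). Scrublet (scanpy 1.11.5) at its automatic threshold marked 1 cell, so the 8.0% of cells with the highest scores were marked, a choice made after this was seen. For genes without a UMI the bound is 3 counts. Named genes are the members, MYOG, the 3 called genes of each list with the largest change between clusters 12 and 3, and the 3 genes most like each member. Some genes that these rules select are not reported here. The list genes named as lower, and the genes set beside TNNT1, were chosen after their values were seen. The members and lists were chosen with earlier results of these data known. Intervals are exact binomial.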

Additional observations from a re-analysis of the deposited data

How the results depend on the processing

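Only library preparation was replicated, so no spread between animals enters any p-value, and depth limits every statement on TNNI1, TNNT3 and the shallow clusters. All 7 members stayed called in cluster 12 against cluster 3 and against all other cells under the alternatives tried. Among the lower calls of members in single clusters, the log2 value of 5 changed sign. These were TNNC2 in cluster 7 with cells under 2000 UMIs left out (0.05), and others in the clustering without the listed genes. There they were TNNC2 (0.91), TNNC1 (0.25) and TNNT2 (0.02) in cluster 1 and TNNC2 (0.16) in cluster 2. Only TNNC2 and TNNC1 in cluster 1 were called higher, and the rest were not called. The cause was not tested. In cluster 15 the number called higher was 0 with DESeq2 size factors, 5 with DESeq2, 3 with the replicate block and 0 without doublets. The share of all genes called under these settings is not given here. With the block 5 calcium handling genes were lower in cluster 12 against 3. The block ended no call of a member and added 14, given beside the results: 9 of TNNI1, 2 of TNNT3 and 1 each of TNNT1, TNNI2 and TNNC1. Clustering without the listed genes gave TNNT1 22.5% and TNNT2 66.2% of troponin T in cluster 3, TNNC1 15.3% of troponin C in cluster 3 and 24.7% in cluster 12, and cells with both TNNC2 and TNNC1 of 61.3% in cluster 3 and 92% in cluster 12. Without doublets cluster 3 had 14.2% TNNC1 and 63.9% of cells with both. Thinned to 1000 UMIs, 94.9% of cells in cluster 12 had a troponin UMI. Without thinning, the troponin level by MYOG was 8.13, 11.5 and 30.8. The clustering without the listed genes matched no cluster to 4, 13 or 15 and gave no value for them. Its matched clusters held other cells in part, with a shared part of 0.377 for cluster 1, 0.543 for 2, 0.619 for 3 and 0.584 for 12. The minimum of 2000 UMIs per cell left no cell in cluster 15.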
